A study of Schizosaccharomyces pombe with 49 samples.

Results

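The comparison set a culture of fission yeast (Schizosaccharomyces pombe) in EMM at 18C against a culture of the same genotype in YEA at 30C. By their labels both libraries are from wild type h90 cells expressing GFP-Pir1, and they are 2 of the 49 RNA sequencing libraries of the series, of which 46 have gene counts. They were chosen by genotype, medium and temperature, with 1 library a side, so no difference below has a replicate check or a p-value. Medium and temperature change together between these libraries, and their parts in a difference cannot be told apart. Of the genes counted, 5951 had 50 or more reads in either library and were compared. The 40 gene lists by function held 1045 places, of which 1040 were compared, and a gene can stand in several lists. EMM is a defined minimal medium and YEA a rich medium made with yeast extract. The h90 mating type switches, so a culture holds cells of both types, P and M, which can mate with each other. The protein Pir1 is encoded by the gene with the symbol iss10.

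In fission yeast, mating and meiosis are the response to poor nutrition. The kinase complex TORC1 keeps cells growing on good nutrients and holds the response back, the transcription factor Ste11 switches on the mating genes and mei2, and the RNA-binding protein Mei2 then starts meiosis. In growing cells many meiotic transcripts are made but removed: Mmi1 binds them, and the MTREC complex, which Pir1 joins, hands them to the nuclear exosome.

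The libraries held 34057799 gene reads in EMM at 18C and 25525454 in YEA at 30C. Levels are given as scaled CPM, that is counts relative to the gene reads of the library, adjusted by the trimmed mean of M values over 9 libraries. A log2 ratio compares the 2 libraries after such a scaling of the pair, and a gene is called higher or lower where it reaches 1 in size, a 2-fold difference. Other libraries set beside the pair were h90 cells with the GFP-Pir1-SA and GFP-Pir1-SD variants in EMM at 18C. Untagged wild type and tor2-ts6 h90 cells in YEA at 30C were used too, the second with a temperature-sensitive allele of the TORC1 kinase gene. Also used were pir1-delta mat1Msmt0 cells, which stay in the M mating type, in EMM and in YEA at 29C. The scaling over 9 libraries also took in wild type mat1Msmt0 cells in EMM at 29C, whose values are not given. Reads mapping to several places were 3.74% in EMM at 18C and 6.41% in YEA at 30C, and no label says whether the libraries come from separate cultures. The untagged YEA 30C library had 10.1% such reads and 14008800 gene reads. Its top 10 genes took 15% of its gene reads, against 7.18% in the GFP-Pir1 YEA library. The GFP-Pir1 library in YEA stood apart from the untagged one in the same medium and temperature, with 364 of 5656 genes higher (6.44%) and 157 lower (2.78%). Between GFP-Pir1-SA and GFP-Pir1 in EMM at 18C, 17 of 5934 genes were higher (0.286%) and 31 lower (0.522%). The tag, the culture and the library all could differ between both YEA libraries, and their parts were not tested, so values against the untagged one are given beside the named genes whose call changes with it and those that moved most. The counts hold no entry for GFP, so the tag could not be checked. For the YEA 30C library the tag rests on the genotype label alone, since the name under which its counts were deposited does not mention Pir1, while that of the EMM 18C library does. If that label is wrong, the genotype changes between the libraries too. The level of iss10 was 127 CPM in EMM at 18C and 105 CPM in YEA at 30C (log2 ratio 0.26), and it was 1.1 and 0.738 CPM in the pir1-delta cells in EMM and in YEA. The untagged YEA 30C library had 59.8 CPM.

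In EMM at 18C, 709 of the 5951 genes (11.9%) were higher and 486 (8.17%) were lower than in YEA at 30C, with a median log2 ratio over all genes of 0.008. The higher side reached much further than the lower one: 118 genes had a log2 ratio of 4 or more and 13 had one of -4 or less. Of those 118 genes, 50 stood in a list of mating, meiosis or spores or had a mug or meu name. The thiamine and iron lists held 4 each, the list of sugar uptake and gluconeogenesis held 2, and 54 stood in no list. Among all 5951 genes compared, 989 stood in any list. That base was not counted for the mating, meiosis and spore lists alone. Genes of ribosomal proteins lay on the lower side almost throughout. Among protein-coding genes, 515 of 4976 were higher and 335 lower. Of 854 long non-coding RNAs, 164 were higher (19.2%) and 142 lower (16.6%).

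**Figure D1:**
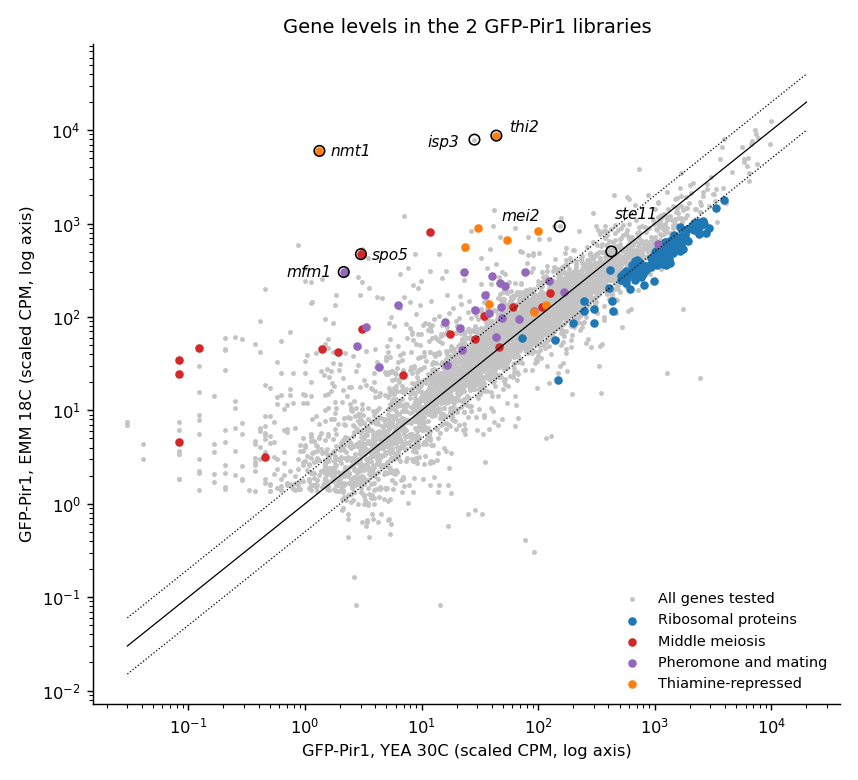
Scaled CPM of each gene tested in EMM at 18C (vertical, log axis) against YEA at 30C (horizontal, log axis), with genes of 4 lists in colour and 7 named genes ringed; the solid line marks equal levels, the dotted lines a 2-fold difference, and genes with no reads are drawn at 0.03 CPM. The thiamine gene nmt1 and the spore gene isp3 stand far above the line, ste11 lies close to it, and the ribosomal protein genes run along its lower side.

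Most genes listed for the start of the sexual programme were higher in EMM at 18C. Of 9 genes of meiotic entry, 7 were higher and none lower, with a median log2 ratio of 2.59, against 0.008 over all genes. The RNA-binding protein gene mei2 had 934 CPM in EMM at 18C and 153 CPM in YEA at 30C (log2 ratio 2.59). The level of mei3, which encodes the inhibitor of the Pat1 kinase that restrains meiosis, was 14 CPM in EMM at 18C and 0.58 CPM in YEA at 30C (4.43). The highest ratio on the list was that of crp79, with 141 CPM in EMM at 18C and 1.12 CPM in YEA at 30C (6.88). This gene is annotated as a poly(A)-binding protein gene and not as a regulator of entry. The regulator at the head of the programme did not share that contrast. The level of ste11 was 504 CPM in EMM at 18C and 424 CPM in YEA at 30C, a log2 ratio of 0.23. The untagged wild type in YEA at 30C was far below both, with 31 CPM of ste11 and 11.9 CPM of mei2. Against that library, the log2 ratios of the EMM 18C library were 4.01 for ste11 and 6.28 for mei2.

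Mating genes followed in both mating types. Of 25 genes of pheromone signalling and mating, 16 were higher and none lower, with a median log2 ratio of 1.94. The M-factor pheromone gene mfm1 had 303 CPM in EMM at 18C and 2.15 CPM in YEA at 30C (7.08). The P-factor pheromone gene map2 had 133 CPM in EMM at 18C and 6.3 CPM in YEA at 30C (4.37). The gene map4 encodes the agglutination protein of P cells, and it had 301 CPM in EMM at 18C and 23.3 CPM in YEA at 30C (3.67). For dni2, a claudin-like protein gene needed at cell fusion, the level was 77.9 CPM in EMM at 18C and 3.36 CPM in YEA at 30C (4.49). The ligand genes were not alike, as mfm2, another M-factor gene, had 229 CPM in EMM at 18C and 47.2 CPM in YEA at 30C (2.26). The gene mam2, for the P-factor receptor, had 170 CPM in EMM at 18C and 35 CPM in YEA at 30C (2.26). The M-factor receptor gene map3 had 120 CPM in EMM at 18C and 28.8 CPM in YEA at 30C (2.04). The order of these genes depended on the YEA library: against the untagged one the log2 ratios were 8.86 for mfm1, 5.36 for mam2, 5.09 for map2, 5.05 for dni2, 4.73 for mfm2, 3.82 for map4 and 3.08 for map3. Summed over their markers, M cell genes had 1081 CPM in EMM at 18C and 227 CPM in YEA at 30C, with 5 of 6 genes higher. P cell genes had 598 CPM in EMM at 18C and 80.4 CPM in YEA at 30C, with 3 of 4 higher. The untagged YEA library had 105 CPM of the M cell genes and 43.3 CPM of the P cell genes. In these bulk libraries, more cells of a kind and more RNA per cell cannot be told apart, and the 3 mfm genes encode near-identical peptides and may share reads.

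Transcripts that Mmi1 marks for removal were higher with 1 exception. Of 15 such targets, 14 were higher and 1 was lower, with a median log2 ratio of 2.81. The RNA-binding protein gene spo5 reached 471 CPM in EMM at 18C and 3.02 CPM in YEA at 30C (7.24). The meiotic cohesin gene rec8 had 84.8 CPM in EMM at 18C and 7.37 CPM in YEA at 30C (3.50). For mei4, the forkhead transcription factor of middle meiosis, the level was 65.6 CPM in EMM at 18C and 17.6 CPM in YEA at 30C (1.88). The exception was mcp7, which encodes a meiotic coiled-coil protein of recombination. Its level was 17.2 CPM in EMM at 18C and 96.8 CPM in YEA at 30C, a log2 ratio of -2.50, and the untagged YEA library had 102 CPM of it. The genes of the removal machinery were near level: none of 27 genes of MTREC, the exosome and their cofactors was higher or lower, and their median log2 ratio was -0.20. The lowest were the helicase gene mtr4 with 133 CPM in EMM at 18C and 249 CPM in YEA at 30C (-0.92) and mmi1 with 136 CPM in EMM at 18C and 243 CPM in YEA at 30C (-0.85).

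Recombination genes had a like shift. Of 21 genes of recombination and meiotic cohesion, 18 were higher and mcp7 alone was lower, with a median log2 ratio of 2.80. The strand exchange protein gene dmc1 had 172 CPM in EMM at 18C and 1.86 CPM in YEA at 30C (6.46). For hop1, whose product is part of the chromosome axis, the level was 42.3 CPM in EMM at 18C and 1.74 CPM in YEA at 30C (4.54). The gene mde2 is needed for meiotic DNA breaks, and its 15.9 CPM in EMM at 18C stood against 3 reads in YEA at 30C, a ratio of 127 with a 95% counting interval of 43.1 to 616. Of 13 genes of telomere clustering and horsetail movement, the nuclear oscillation of prophase, 9 were higher and none lower, with a median of 1.37. The dynein anchor gene num1 had 167 CPM in EMM at 18C and 21.3 CPM in YEA at 30C (2.96). The bouquet gene bqt1 had 10.5 CPM in EMM at 18C and 1.57 CPM in YEA at 30C (2.67).

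Genes of later meiosis and of spores were higher in large part. Of 18 genes of middle meiosis, 14 were higher and none lower, with a median log2 ratio of 3.51. The kinase gene spo4, which acts in the second division, had 47 CPM in EMM at 18C and 3 reads in YEA at 30C, a ratio of 375 with a counting interval of 128 to 1820. For the kinase gene mde3, 34.8 CPM in EMM at 18C stood against 2 reads in YEA at 30C, a ratio of 416 with an interval of 115 to 3440. The gene mfr1, whose product activates the anaphase-promoting complex in meiosis, had 24.8 CPM in EMM at 18C and 2 reads in YEA at 30C, a ratio of 296 with an interval of 81.8 to 2450. These intervals are wide because so few reads stand below the ratio, and they cover counting error only. The pleckstrin homology gene meu6 rests on more reads, with 813 CPM in EMM at 18C and 11.9 CPM in YEA at 30C (6.07).

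Of 24 genes of the spore wall and forespore membrane, 13 were higher and none lower, with a median of 1.57. The gene isp3, which encodes a main protein of the spore surface, reached 7930 CPM in EMM at 18C and 28.4 CPM in YEA at 30C (8.11). The glucosidase gene meu17 had 244 CPM in EMM at 18C and 0.994 CPM in YEA at 30C (7.83). The amylase-like gene mde5 had 235 CPM in EMM at 18C and 1.12 CPM in YEA at 30C (7.62). The meiotic septin genes spn5 and spn6, whose products sit at the forespore membrane, had log2 ratios of 5.55 and 5.91. Among 111 genes tested of 115 with mug or meu names, given for higher levels in meiosis, 64 were higher and 1 was lower, with a median of 1.34. The non-coding RNA meu3 had the highest ratio of that group (9.28), with 586 CPM in EMM at 18C and 0.87 CPM in YEA at 30C. Without a symbol, the IDs with the highest ratios were SPBC28E12.02, a BICC1 family RNA-binding protein (8.57), and SPAC56F8.12, an uncharacterized protein (7.76).

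Summed over mei4, rec8, dmc1, spo5, meu10 and isp3, taken as markers of cells in meiosis or sporulation, levels were 9559 CPM in EMM at 18C and 84.8 CPM in YEA at 30C, with 6 of 6 higher. Of these, mei4, rec8 and spo5 are also Mmi1 targets, so their levels need not stand for cells in meiosis. In the other EMM 18C libraries the sum was 11238 CPM with GFP-Pir1-SA and 4474 CPM with GFP-Pir1-SD. It was 60.9 CPM in untagged YEA 30C cells. In pir1-delta mat1Msmt0 cells it was 108 CPM in EMM and 104 CPM in YEA at 29C. In tor2-ts6 h90 cells in YEA at 30C, however, it was 2458 CPM, so a high sum was not particular to EMM at 18C. The same cells had 4548 CPM of the M cell genes and 4034 CPM of the P cell genes. The gene isp3 alone made up most of the meiosis and sporulation sum in each EMM 18C library and in tor2-ts6 cells. Its level was 7930 CPM with GFP-Pir1, 9660 CPM with GFP-Pir1-SA, 4140 CPM with GFP-Pir1-SD and 1530 CPM in tor2-ts6 cells. With GFP-Pir1 and GFP-Pir1-SD in EMM at 18C, dmc1 had 172 and 27.7 CPM, and spo5 had 471 and 61.1 CPM.

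**Figure D2:**
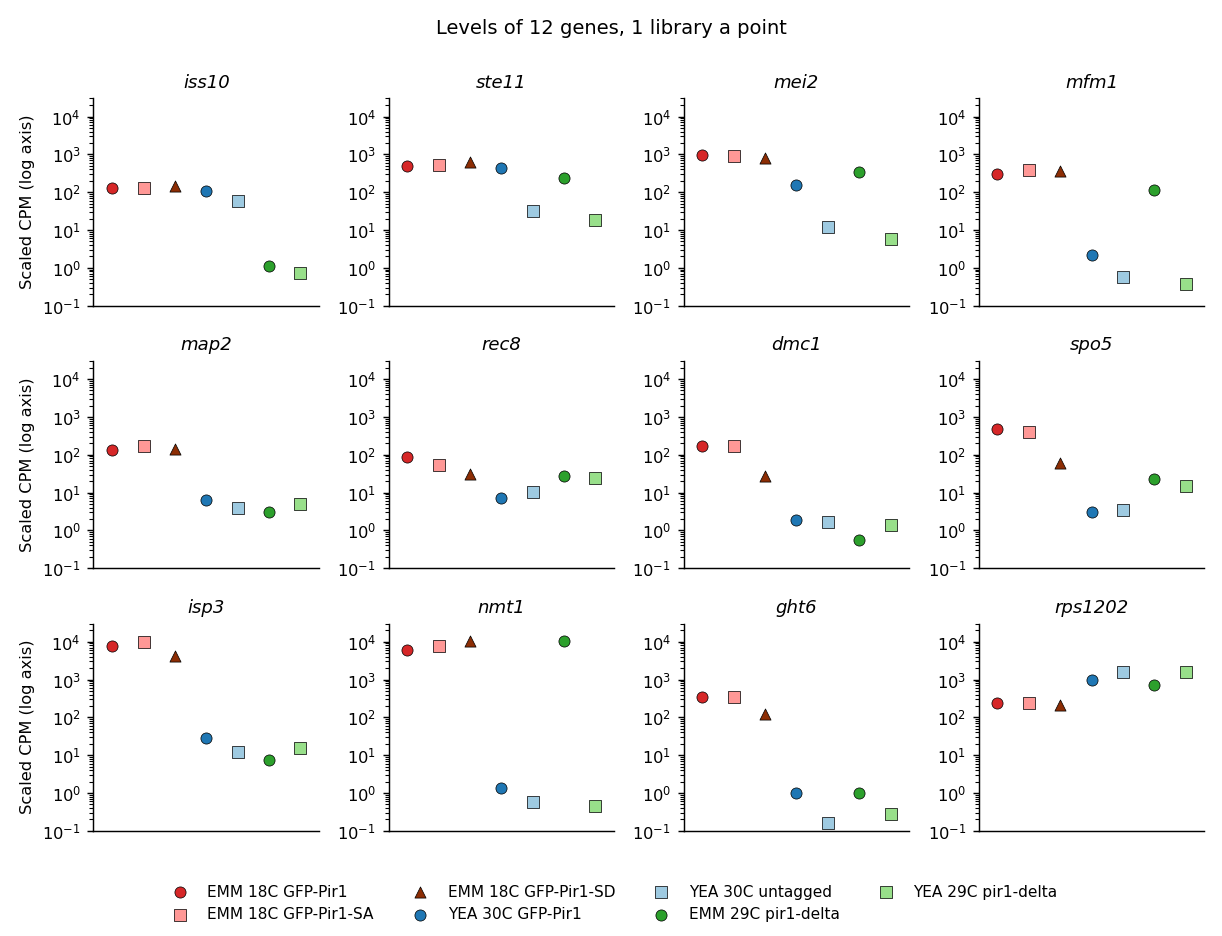
Scaled CPM (log axis) of 12 genes in 7 libraries, 1 point a library, from left to right EMM 18C with GFP-Pir1, GFP-Pir1-SA and GFP-Pir1-SD, YEA 30C with GFP-Pir1 and untagged, and pir1-delta mat1Msmt0 cells in EMM and YEA at 29C. The meiotic genes dmc1 and spo5 are high in the EMM 18C libraries, nmt1 and mfm1 are high in every EMM library, and ste11 has 424 CPM in GFP-Pir1 cells in YEA, close to its 504 CPM in EMM at 18C, and 31 CPM in untagged cells in YEA.

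Thiamine genes gave the largest single ratio. These genes are repressed by thiamine, which yeast extract supplies. Of 9 genes on the list, 7 were higher and none lower, with a median log2 ratio of 3.59. The gene nmt1, which makes the pyrimidine part of the vitamin and whose promoter is widely used as a switch, had 6000 CPM in EMM at 18C and 1.33 CPM in YEA at 30C (12.06). Its ratio of 4490 has a counting interval of 3180 to 6560. The thiazole synthesis gene thi2 had 8750 CPM in EMM at 18C and 43.8 CPM in YEA at 30C (7.62). The uptake genes thi9 and bsu1, for thiamine and vitamin B6, had log2 ratios of 4.88 and 4.57. The ID SPCC794.03, annotated as a thiamine transporter and chosen after its values were seen, had 429 CPM in EMM at 18C and 3.44 CPM in YEA at 30C (6.92). Together the 9 genes took 1.93% of gene reads in EMM at 18C (95% Wilson interval 1.92 to 1.93%) and 0.0474% in YEA at 30C (0.0465 to 0.0482%). The same genes lay apart between media at 29C in pir1-delta cells, where 7 of 9 were higher in EMM and the median was 3.38.

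Sugar uptake and gluconeogenesis genes were higher as well, 12 of 18 with none lower and a median log2 ratio of 2.42. The hexose transporter gene ght6 had 336 CPM in EMM at 18C and 0.994 CPM in YEA at 30C (8.29). The gluconate transporter gene ght3 had 158 CPM in EMM at 18C and 4.6 CPM in YEA at 30C (5.07). Both belong to a gene family whose members may share reads. The gluconeogenic gene fbp1, a textbook target of glucose repression, had 336 CPM in EMM at 18C and 36.2 CPM in YEA at 30C (3.20). Against the untagged YEA library the ratios were 10.42 for ght6, 7.34 for ght3 and 5.43 for fbp1. Of 19 genes of glycolysis and fermentation, 5 were higher and 1 lower, with a median of 0.08 and a range of -2.20 to 5.44. The pyruvate decarboxylase genes pdc201 and pdc202 led the higher ones, with log2 ratios of 5.04 and 5.44, and the enolase gene eno102 had 2.32.

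Other nutrient genes were mixed. Of 15 iron genes, 7 were higher and none lower, with a median of 0.68. The siderophore transporter gene str1 had 241 CPM in EMM at 18C and 9.82 CPM in YEA at 30C (4.59), and the iron oxidase gene fio1 had 144 CPM in EMM at 18C and 7.91 CPM in YEA at 30C (4.16). Of 10 genes for other vitamins, 5 were higher and none lower (median 1.04), among them vht1, the biotin transporter gene (1.74). Of 6 zinc genes, 2 were higher, the metallothionein gene zym1 (4.52) and the transporter gene zrt1 (1.19), with a list median of 0.49. Of 8 phosphate genes, 2 were higher, the acid phosphatase genes pho4 (3.07) and pho1 (2.36), with a median of 0.67, and pho4 is itself repressed by thiamine. Against the untagged YEA library pho1 (0.36) and zrt1 (0.85) were no longer called, as that library had 2960 CPM of pho1, where GFP-Pir1 cells had 3820 CPM in EMM at 18C and 735 CPM in YEA at 30C. None of 6 copper genes was higher or lower (median 0.07). Of 14 methionine and sulfur genes, 3 were higher and 1 lower (median 0.22), and of 19 nitrogen starvation genes 4 were higher and 2 lower (median 0.20). The vacuolar protease gene isp6, a gene induced by nitrogen starvation, had 1150 CPM in EMM at 18C and 156 CPM in YEA at 30C (2.87).

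**Figure D3:**
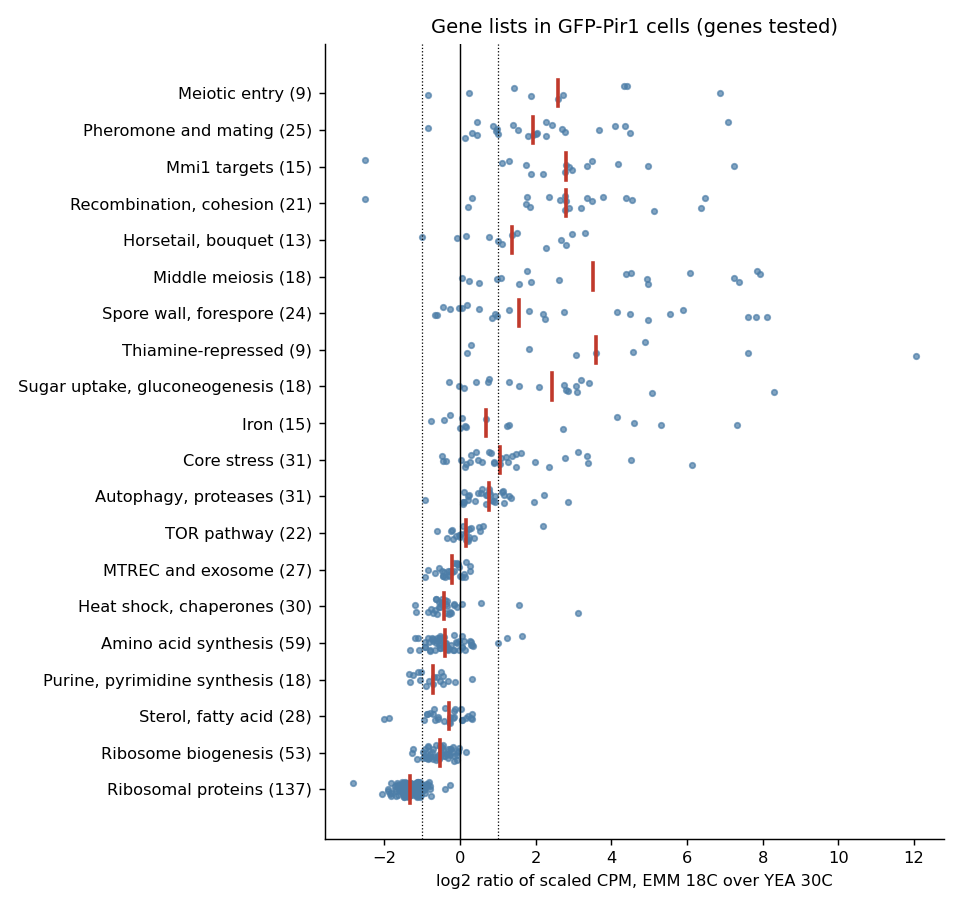
The log2 ratio of scaled CPM, EMM 18C over YEA 30C, for each gene tested (points, spread vertically for display) in 20 lists with the number of genes in brackets; red bars are list medians, the solid line is 0 and the dotted lines mark a 2-fold difference. Meiotic, spore and thiamine lists spread far to the right of 1, and the 137 ribosomal protein genes lie in a tight group with a median of -1.32.

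Ribosomal protein genes were the largest group of lower genes among the lists. Of 137 genes, 121 were lower and none higher, all 137 ratios were below 0, and the median log2 ratio was -1.32. The small subunit gene rps1202 had 241 CPM in EMM at 18C and 986 CPM in YEA at 30C (-2.05). The large subunit gene rpl3702 had 219 CPM in EMM at 18C and 807 CPM in YEA at 30C (-1.90), and the stalk protein gene rpp203 had 117 CPM in EMM at 18C and 436 CPM in YEA at 30C (-1.91). Most of these genes have a near-identical copy, so the share of each copy is uncertain. As a group they took 7.37% of gene reads in EMM at 18C (Wilson interval 7.36 to 7.38%) and 16.1% in YEA at 30C (16.1 to 16.2%). The mitochondrial ribosomal proteins were not part of that shift, with 1 of 61 genes lower, none higher and a median of -0.18.

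Other growth genes leaned the same way by less. Over all genes compared 8.17% were lower, a larger share than that of the ribosome biogenesis or amino acid synthesis genes called lower. Of 53 ribosome biogenesis genes, 52 ratios were below 0 but only 3 genes were lower by the size rule, with a median of -0.54. Those were the nucleolin gene gar2 (-1.27), the fibrillarin gene fib1 (-1.24) and nuc1, the large subunit gene of RNA polymerase I (-1.13). None of the 3 was lower against the untagged YEA library, with ratios of -0.16 for gar2, -0.61 for fib1 and -0.55 for nuc1, and in GFP-Pir1-SA cells in EMM at 18C over untagged cells the list median was -0.19. Of 18 genes tested on the list of purine and pyrimidine synthesis, which holds 19, 6 were lower and none higher, with a median of -0.71. The lowest of them, prs1 (-1.35), is annotated as a proline-tRNA ligase, so the count and median include a gene of another function. The IMP dehydrogenase gene gua1 had 594 CPM in EMM at 18C and 1270 CPM in YEA at 30C (-1.11). Of 59 amino acid synthesis genes, 4 were lower and 3 higher, with a median of -0.39. The higher ones included met17, the homocysteine synthase gene, with 547 CPM in EMM at 18C and 174 CPM in YEA at 30C (1.63). The untagged YEA library had 559 CPM of met17, so that ratio does not hold against it (-0.04). Of 12 genes of RNA helicases and cold response, 1 was lower, the eIF2 alpha gene tif211 (-1.09), and none was higher (median -0.50). That lean was absent in GFP-Pir1-SA cells in EMM at 18C over untagged cells, where the list median was 0.05 and 7 of 12 ratios were above 0.

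The genes of the growth signal itself were level. Of 22 TOR pathway genes, 1 was higher and none lower, with a median log2 ratio of 0.16. The TORC1 kinase gene tor2 had 487 CPM in EMM at 18C and 413 CPM in YEA at 30C (0.22). The higher one was psk1, an S6 kinase family gene, with 376 CPM in EMM at 18C and 80.7 CPM in YEA at 30C (2.20). Genes of autophagy, a process that TORC1 restrains, leaned to the higher side: 30 of 31 ratios were above 0, 9 genes were higher, none was lower and the median was 0.77. The ubiquitin-like gene atg8 had 199 CPM in EMM at 18C and 50.5 CPM in YEA at 30C (1.96).

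Stress genes differed by kind. Of 31 core environmental stress genes, 16 were higher and none lower, with a median log2 ratio of 1.07. The transcription factor gene atf21 had 134 CPM in EMM at 18C and 1.82 CPM in YEA at 30C (6.13). The glyoxalase gene hsp3101 had 172 CPM in EMM at 18C and 16.4 CPM in YEA at 30C (3.38). Of 30 heat shock and chaperone genes, 2 were higher and 2 lower, with a median of -0.43. The small heat shock gene hsp16 had 715 CPM in EMM at 18C and 81.9 CPM in YEA at 30C (3.11), and the Hsp70 gene ssa1 was the other higher one (1.55). The mitochondrial co-chaperone gene hsp10 had 219 CPM in EMM at 18C and 487 CPM in YEA at 30C (-1.17), and the ribosome-associated chaperone gene sks2 was the other lower one (-1.18). Against the untagged YEA library sks2 had -0.61 and was not called, and hsp16 had 1.32.

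Membrane lipid genes were mostly near level. Of 28 sterol and fatty acid genes, 2 were lower and none higher, with a median of -0.28. The fatty acid desaturase gene ole1, whose product makes membranes more fluid, had 1260 CPM in EMM at 18C and 1210 CPM in YEA at 30C (0.04). The lower genes were erg31, a sterol desaturase gene with 30.1 CPM in EMM at 18C and 120 CPM in YEA at 30C, and erg1, the squalene monooxygenase gene, with 101 CPM in EMM at 18C and 366 CPM in YEA at 30C (-1.88). Of 10 septation genes, 1 was higher and 3 lower (median -0.63). Of 22 S phase genes, 3 were higher and none lower (median 0.07), among them cdc18, the replication licensing gene (1.54). Over all genes compared 11.9% were higher, which is close to that share. Of 14 mitotic genes, 1 was higher, the securin gene cut2 (1.33, against 0.79 with the untagged YEA library), and none lower (median 0.31). Of 13 citrate cycle genes, 1 was higher, the malate dehydrogenase gene mdh1 (1.38), and none lower (median 0.20). None of 10 histone genes (median -0.06), 21 heterochromatin genes (0.04), 38 respiratory chain genes (-0.22) or 33 proteasome genes (0.13) was higher or lower.

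The genes with the lowest ratios depended on which YEA library was used. Of the 15 named genes with the lowest ratios, 11 were 2-fold or more higher in the GFP-Pir1 YEA library than in untagged cells in YEA at 30C. They were picked by ratios that a high level in the GFP-Pir1 YEA library lowers, so part of this is built in by the choice. Against the untagged library, 6 of the 15 were still lower and 5 had too few reads. The nitric oxide dioxygenase gene yhb1 had 121 CPM in EMM at 18C and 1760 CPM in YEA at 30C (-3.87), while untagged cells in YEA had 78.3 CPM. The ID SPAC11D3.09, annotated as an agmatinase and chosen after its values were seen, had 24.9 CPM in EMM at 18C and 1280 CPM in YEA at 30C (-5.69), against 7.05 CPM in untagged cells. The IDs without a symbol that had the lowest ratios were SPAC977.18 (-7.97) and SPBPB2B2.18 (-7.35), both uncharacterized proteins. They had 0.304 and 0.414 CPM in EMM at 18C, 91.9 and 77.3 CPM in YEA at 30C with GFP-Pir1, and 5.91 and 2.75 CPM in untagged cells. With the untagged library on the YEA side, 764 of 5910 genes were higher (12.9%) and 399 lower (6.75%). Then 4 of the 13 genes at -4 or less were still lower, as were 226 of the 486 lower genes in all. Genes with too few reads in that comparison stay in these totals and count as not lower. One is SPBPB2B2.18, so the rest did not all fail to differ. On the other side, 118 of the 118 genes at 4 or more were still higher, as were 547 of the 709. The EMM 18C library was the same in both comparisons, so these counts are no independent check of it. Differences that were as large against either YEA library include the4, an acyl-coenzyme A thioesterase gene, with 30.1 CPM in EMM at 18C and 333 CPM in YEA at 30C (-3.48), and 301 CPM in untagged cells. They also include mfs3, a spermidine family transporter gene, with 78.1 CPM in EMM at 18C and 520 CPM in YEA at 30C (-2.75), and 575 CPM in untagged cells.

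**Figure D4:**
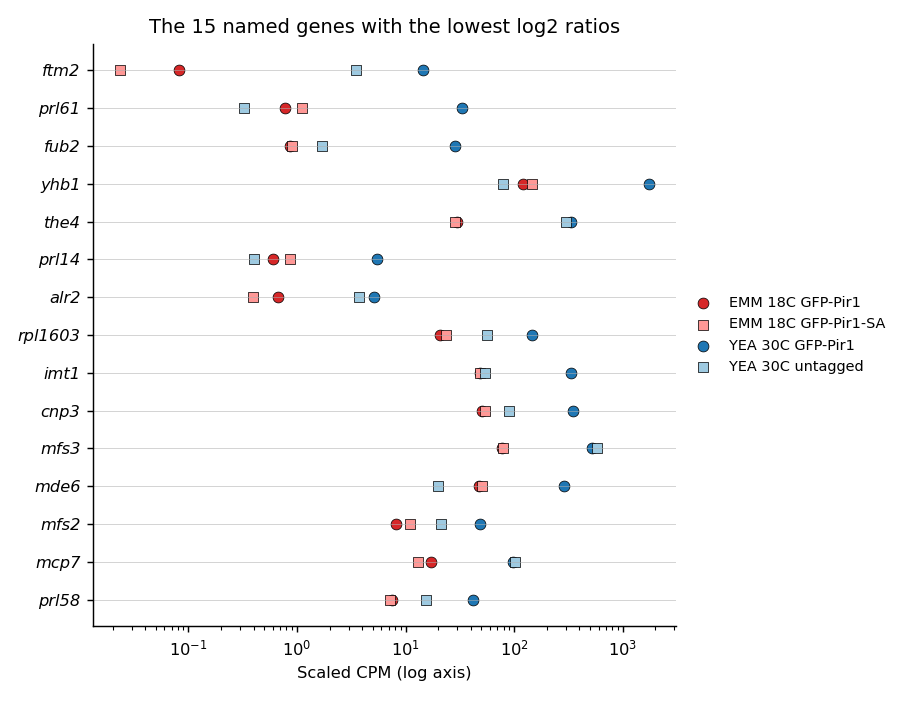
Scaled CPM (log axis) of the 15 named genes with the lowest log2 ratios, lowest at the top, in EMM 18C cells with GFP-Pir1 (red circles) and GFP-Pir1-SA (light squares) and in YEA 30C cells with GFP-Pir1 (blue circles) and without the tag (pale blue squares). For yhb1, prl61, fub2 and imt1 the untagged YEA point lies with the EMM points, while for the4, mfs3 and mcp7 both YEA points lie together on the right.

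A pair that shares no library with this one, GFP-Pir1-SA in EMM at 18C over untagged wild type in YEA at 30C, was set beside it. In that pair 806 of 5919 genes were higher (13.6%) and 436 lower (7.37%). Among the genes tested in both, 534 were higher in both, which is 76.6% of those higher in GFP-Pir1 cells and 67.7% of those higher in the second pair. Lower in both were 232 genes, 52.3% of the lower genes of GFP-Pir1 cells and 54.3% of those of the second pair. Over all genes tested in both, the second pair called 13.4% higher and 7.27% lower. Its list medians were 3.45 for middle meiosis, 3.28 for mating, 3.30 for thiamine genes and -1.22 for ribosomal proteins. So among these lists the second pair had the mating genes further apart than GFP-Pir1 cells did (1.94), and the others at about the same distance. Further lists differed too. The second pair had medians of 4.04 for meiotic entry and 1.26 for iron, where GFP-Pir1 cells had 2.59 and 0.68. For RNA helicases and cold response it had 0.05, where GFP-Pir1 cells had -0.50. Within EMM at 18C, GFP-Pir1-SD set against GFP-Pir1 had 23 of 5899 genes higher (0.39%) and 211 lower (3.58%). The lower ones included 15 of 21 recombination genes and 10 of 18 genes of middle meiosis, and 0 of 25 mating genes.

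Where the medium changed at 1 temperature, in pir1-delta mat1Msmt0 cells at 29C, fewer genes lay apart. In EMM, 301 of 5790 genes were higher (5.2%) and 114 lower (1.97%) than in YEA. Of the genes higher in GFP-Pir1 cells in EMM at 18C and tested here, 185 were also higher, 31.8% of them and 62.3% of those higher at 29C. For the lower genes the shared number was 46, 10.3% of those lower in GFP-Pir1 cells and 41.4% of those lower at 29C. Thiamine (median 3.38), sugar uptake (1.86) and mating genes (1.81) were apart at 29C too. In these M type cells 5 of 6 M cell genes were higher in EMM (median 4.07), and 1 of 4 P cell genes (0.37). Of 6 meiotic entry genes tested, 3 were higher (median 0.82). The log2 ratios at 29C were 5.84 for mei2 and 3.68 for ste11. In GFP-Pir1 cells they were 2.59 and 0.23, or 6.28 and 4.01 against the untagged YEA 30C library. The list of middle meiosis (0.34), that of Mmi1 targets (0.15) and that of recombination (0.14) lay near 0. Such a ratio does not say that levels were low in both media. In EMM and YEA at 29C rec8 had 28 and 24 CPM, and dmc1 had 0.567 and 1.38 CPM. GFP-Pir1 cells in YEA at 30C had 7.37 CPM of rec8 and 1.86 CPM of dmc1. Ribosomal proteins had a median of -0.69 with 7 of 137 genes lower. Temperature, Pir1, mating type and the tag all differ between the pairs, so what sets them apart cannot be told from these libraries.

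**Figure D5:**
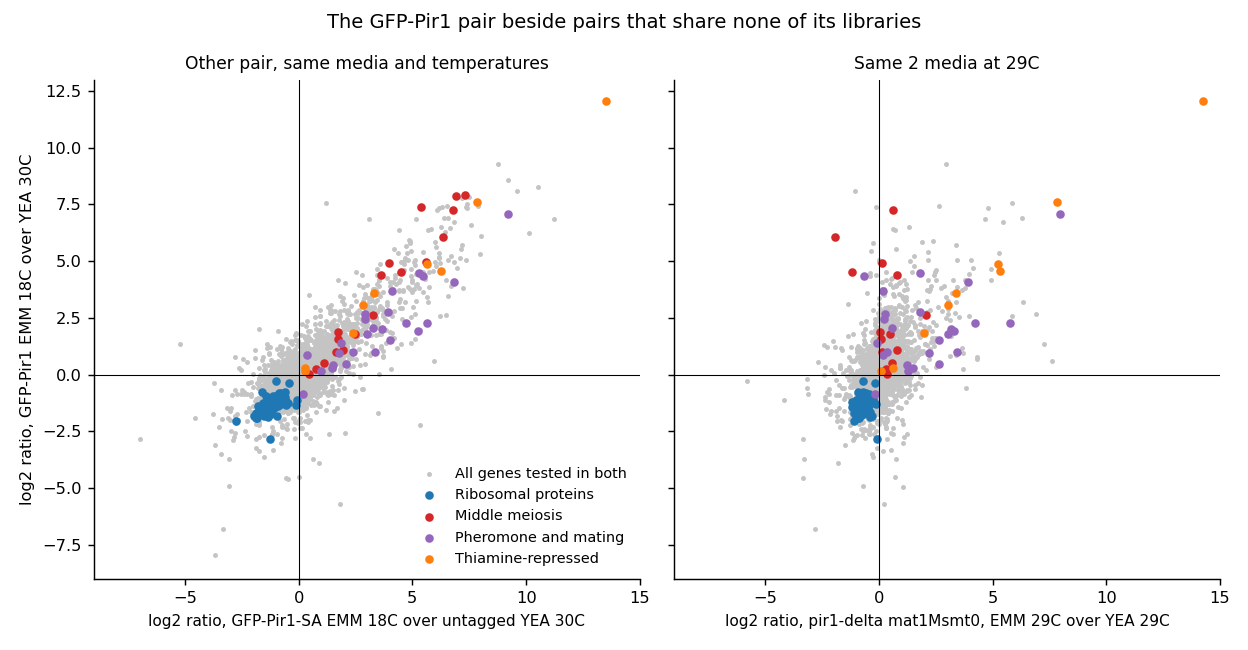
The log2 ratio of GFP-Pir1 cells, EMM 18C over YEA 30C (vertical), against that of GFP-Pir1-SA EMM 18C over untagged YEA 30C (left panel) and of pir1-delta mat1Msmt0 cells, EMM over YEA at 29C (right panel), for genes tested in both pairs, with 4 lists in colour. Thiamine genes lie along the rising diagonal in both panels, while the genes of middle meiosis do so in the left panel and stand near 0 on the horizontal axis in the right one.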

How the data were processed

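RNA of h90 fission yeast was sequenced, and per the submitters' processing notes Trimmomatic and STAR were used. Tool versions, genome build and annotation: not given in the sources used here. Files deposited by the authors hold whole-number read counts per gene in 3 columns, for unstranded reads and for each strand. The third was used, because it held 6.23 and 6.49 times the reads of the opposite strand in the EMM 18C and YEA 30C libraries. Left out were the entries naming no gene: unmapped reads (0.298% and 0.323% in the same order), reads mapping to several places, reads in no feature (2.19% and 1.54%) and ambiguous reads (2.02% and 1.88%).

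Ratios are of CPM after the trimmed mean of M values in edgeR 4.0.16 (R 4.3.3), with a prior count of 2, for genes with 50 or more reads in either library. Levels were scaled over 9 libraries. With 1 library a side, genes were called by a log2 ratio of 1 or more in size, with no test. Intervals of shares are 95% Wilson intervals and those of ratios come from an exact binomial interval. They cover counting error only, since reads are not independent molecules. On simulated data, where the ratio step was tested, the made changes came back. DESeq2 1.42.0 size factors, other prior counts and filters, and other libraries were tried as alternatives.

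Symbols, products and gene types come from the RefSeq gene table of assembly ASM294v3, which matched 6845 of 7035 IDs (97.3%). The named genes are a selection from the 15 largest ratios each way among symbols with 100 or more reads, up to 5 members of each list, a few anchors fixed with them, and at most 2 IDs without a symbol each way. Further ones are said to be chosen after their values were seen, as were some list members printed for their role. The pair, the 40 lists and their members were chosen with earlier results of these data known.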

Additional observations from a re-analysis of the deposited data

Results flagged for a closer look

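Each gene here lay 2-fold or more apart in both pairs and in opposite directions, in GFP-Pir1 cells (EMM 18C over YEA 30C) and in the pair that shares no library with them (GFP-Pir1-SA EMM 18C over untagged YEA 30C). With 1 library in each place, the difference between the pairs was not tested. The calcium pump gene pmc1 had a log2 ratio of -1.63 in GFP-Pir1 cells and 1.55 in the second pair, with 262 and 306 CPM in EMM at 18C (GFP-Pir1 and GFP-Pir1-SA) and 800 and 104 CPM in YEA at 30C (GFP-Pir1 and untagged). The methyltransferase gene cmt2 had -2.21 in GFP-Pir1 cells and 5.34 in the second pair, with 266 CPM in YEA with GFP-Pir1 and 2.51 CPM in untagged cells. For mde6, a muskelin gene, the ratios were -2.61 in GFP-Pir1 cells and 1.33 in the second pair. In all 3 the YEA libraries were the ones far apart. The opposite turn held for the non-coding RNA meu16, with 1.99 in GFP-Pir1 cells and -1.75 in the second pair. It also held for the small nucleolar RNAs snR94 (1.17 in GFP-Pir1 cells and -1.37 in the second pair) and sno20 (1.23 in GFP-Pir1 cells and -1.26 in the second pair). For snR94 the YEA libraries had 144 CPM with GFP-Pir1 and 823 CPM without the tag.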

How the results depend on the processing

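No paired analysis was possible because each group has 1 library, and no replicate could be left out. The counts of higher and of lower genes stayed within 1.5 times the main count under the alternatives run, with 500 to 889 genes higher and 328 to 564 lower. Prior counts of 0.5 and 10, no filter on reads and scaling over the 4 GFP-Pir1 libraries moved no list count or median past its limit. Scaling by total gene reads shifted the median of all genes by 0.185 log2. It left 2 amino acid, 3 purine and pyrimidine, 0 heat shock, 0 RNA helicase, 0 mitochondrial ribosomal and 0 mug or meu genes lower, and 3 heterochromatin, 2 citrate cycle and 1 mitochondrial ribosomal gene higher. DESeq2 size factors made 1 horsetail and 1 heterochromatin gene lower, and a filter of 200 reads left 0 glycolysis genes lower. The count without strand leaves overlapping genes out, so fewer were compared: 8 of 10 recombination, 5 of 9 horsetail, 6 of 10 middle meiosis and 40 of 80 mug or meu genes were higher, 0 methionine, 1 heat shock and 0 mitochondrial ribosomal genes were lower, and the medians were 0.96 for spore and 0.86 for core stress genes.

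Taking the untagged wild type as the YEA library moved the most. Higher genes then numbered 0 for amino acids, 1 for methionine, 1 for zinc, 6 for S phase, 2 for septation, and 1 each for MTREC and exosome, respiratory chain and RNA helicases. Lower genes numbered 10 for amino acids, 4 for heat shock, 4 for sterols, 3 for glycolysis, 3 for mug or meu genes, 0 for ribosome biogenesis, and 1 each for horsetail, nitrogen starvation, copper, phosphate, S phase, septation and respiratory chain. The medians were 0.71 for other vitamins and 1.24 for iron. Some of the 214 named genes had too few reads for that comparison. Among the others, 169 kept their call or lack of one, 22 lost it and 11 gained one. In 5 called genes the sign changed: SPAC11D3.09 (1.80), SPBPB2B2.05 (-3.63, against 1.35 with GFP-Pir1), mde6 (1.24), met17 (-0.04) and yhb1 (0.62). Of these 5, met17 came to lie near 0, and SPAC11D3.09 and SPBPB2B2.05 were chosen after their values were seen. The cause of these changes was not tested.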
